A study of Mus musculus with 28 samples.

Results

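Trp53inp2, Pkp4, Trak2, Map4, Nudt3 and Bcas1 are 6 mRNAs that lie outside the usual catalogue of synaptic transcripts. They were chosen from the SynSURF count table because every sorted library stood above every crude one, and they are 6 of the 25239 genes in that table and 6 of the 24443 genes in the sucrose table. The choice rested on scaled levels in the SynSURF libraries, so those levels are described here without a test. The sucrose gradient libraries played no role in the choice and give the independent comparison.

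The study sequenced RNA of synaptosomes, the sealed nerve terminals that form when brain tissue is homogenised, before and after particle sorting. Of 28 libraries, 10 were SynSURF crude, 10 SynSURF sorted, 3 sucrose crude and 3 sucrose sorted, and another 2 of sorted total RNA are not analysed here. In SynSURF, particles are held with a reversible fixative during the sort, and the other preparation used a sucrose gradient. Per the labels, all material is mouse brain. Crude pellets were resuspended in PBS and sorted particles in the reductant TCEP, after which a whole-transcriptome kit amplified the RNA and libraries were made on the 10x Genomics platform. The labels give no strain, genotype, age or treatment and name the cell type as primary neurons. Whether replicates are separate animals is not stated, so the spread between libraries may be technical.

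The SynSURF groups differed in depth. Crude libraries held 1035423 to 8897238 counts and sorted libraries 76520 to 1812759, with 12236 to 14701 and 2588 to 6630 genes detected. The share of counts on the ribosomal RNA gene Rn45s was 0.0894% to 0.778% in crude and 0.805% to 62.5% in sorted libraries. Sorted replicates 1 and 4 stood apart in composition, with TMM scaling factors of 0.303 and 0.430, while crude libraries had factors of 1.20 to 1.62. Sucrose libraries held 1844679 to 6793374 counts, with factors of 0.957 to 1.06. Levels are CPM, a gene's counts relative to the TMM-scaled library total, unless stated, so the values depend on that scaling.

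Neurons and glia send selected mRNAs to distant compartments such as axons, dendrites and myelin sheaths, where the encoded proteins can be made on site. Trp53inp2 encodes an autophagy regulator that binds the LC3 and GABARAP family, and in rat sympathetic neurons its mRNA is abundant in axons without being translated there. Trak2 and Map4 encode parts of the transport machinery, an adaptor that couples mitochondria to kinesin through the Miro proteins and a microtubule-binding protein related to Map2 and tau. Pkp4 (p0071) encodes an armadillo-repeat junction protein of the p120-catenin family, Nudt3 a hydrolase of diphosphoinositol polyphosphates that also removes mRNA caps, and Bcas1 a protein of myelinating oligodendrocytes.

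All 6 mRNAs had counts in all 26 libraries, but few in some sorted ones. The lowest sorted counts per gene were 60 for Trp53inp2, 42 for Pkp4, 173 for Trak2, 76 for Map4, 32 for Nudt3 and 11 for Bcas1. All 6 passed the expression filter in both tables.

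Trp53inp2 (chr2:155381059-155389850, plus strand, GRCm38) ranged from 92.3 to 415 CPM in SynSURF crude libraries, with a median of 201 CPM. In sorted libraries it ranged from 457 to 7307 CPM, with a median of 3132 CPM. The groups did not overlap, but the lowest sorted library, replicate 4, stood only 1.10 times above the highest crude library, replicate 1. The fitted log2 fold change of sorted over crude was 3.98 ± 0.54 (SE, n = 10 per group), the highest of the 6.

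Pkp4 (chr2:59160850-59355208, plus strand) ranged from 47.2 to 177 CPM in crude libraries, with a median of 115 CPM. In sorted libraries it ranged from 426 to 2883 CPM, with a median of 1581 CPM. The lowest sorted library, again replicate 4, stood 2.41 times above the highest crude one, and the fitted log2 fold change was 3.78 ± 0.51.

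Trak2 (chr1:58900449-58973430, minus strand) ranged from 440 to 951 CPM in crude libraries, with a median of 687 CPM, and from 2947 to 9732 CPM in sorted libraries, with a median of 5544 CPM. Its gap was the widest of the 6, the lowest sorted library standing 3.10 times above the highest crude one. It was also the steadiest member in sorted material, where the highest library was 3.30 times the lowest. The fitted log2 fold change was 2.96 ± 0.41.

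Map4 (chr9:109931460-110083955, plus strand) ranged from 258 to 482 CPM in crude libraries, with a median of 332 CPM. Its highest crude library was replicate 1, and the next was at 357 CPM. In sorted libraries it ranged from 579 to 6753 CPM, with a median of 1353 CPM, and 28.3% of the summed sorted level came from replicate 3. The gap was 1.20 and the fitted log2 fold change 2.82 ± 0.52.

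Nudt3 (chr17:27579382-27623495, minus strand) had the narrowest gap. Crude libraries ranged from 100.1 to 433 CPM, with a median of 340 CPM, and sorted libraries from 437 to 10491 CPM, with a median of 1102 CPM. The lowest sorted library, replicate 7, was 1.01 times the highest crude one, so the groups touched. Sorted replicate 10 alone held 42.9% of the summed sorted level, and the fitted log2 fold change was 2.89 ± 0.62.

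Bcas1 (chr2:170346991-170427845, minus strand) was the scarcest member in crude libraries, from 49.7 to 101 CPM with a median of 65.5 CPM. In sorted libraries it ranged from 168 to 3619 CPM, with a median of 719 CPM. The lowest sorted library, replicate 8, stood 1.66 times above the highest crude one, and replicate 1 held 39% of the summed sorted level. The fitted log2 fold change was 3.80 ± 0.61. In bulk samples such as these, fewer particles of a kind and less RNA per particle cannot be told apart.

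**Figure D1:**
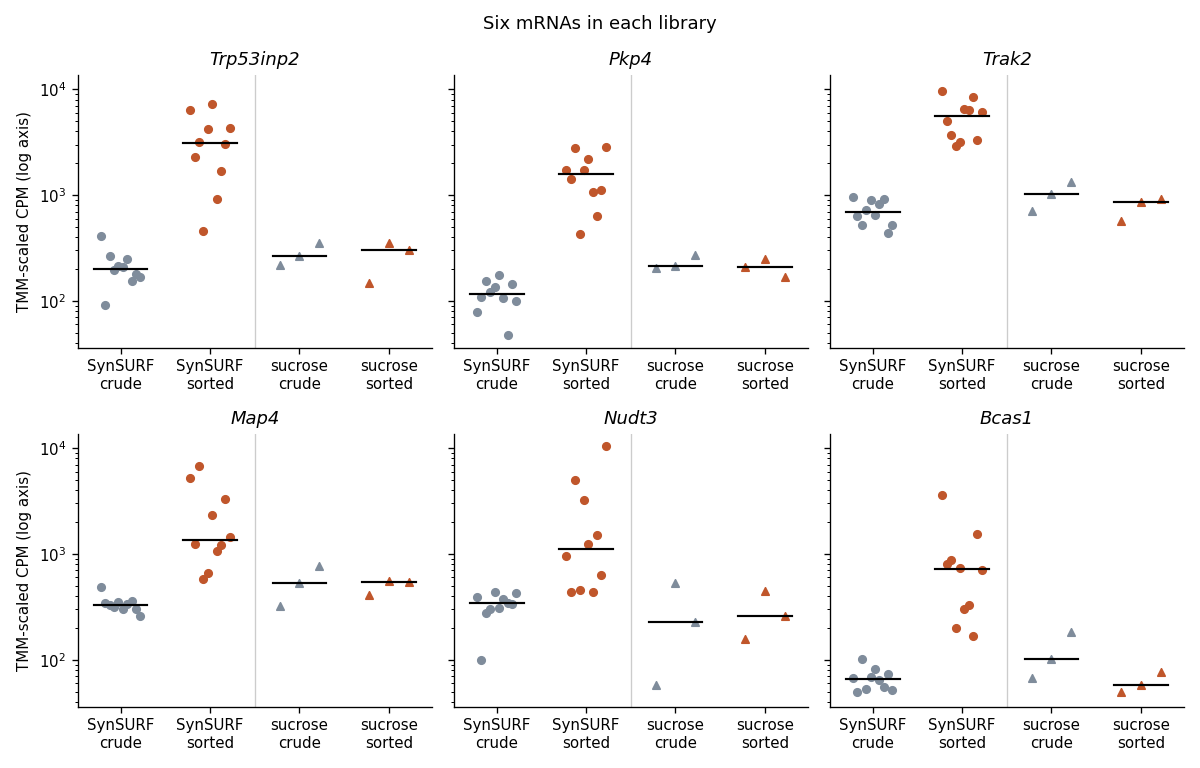
Level of each mRNA in every library, as TMM-scaled CPM on a log axis. Points are libraries (10 SynSURF crude, 10 SynSURF sorted, 3 sucrose crude and 3 sucrose sorted) and bars are group medians. SynSURF sorted points lie above all SynSURF crude points in each panel, most narrowly for Nudt3, and sucrose sorted and crude points overlap.

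Complete separation was rare on this scale. It held for 10 of 6598 genes tested, or 0.152%, and the 6 mRNAs were chosen for it. Of the genes outside the 6, the nearest inside were Mbp (gap 3.35), Rn45s (1.86) and Fth1 (1.45), and the nearest outside were Eif1 (0.991), Aktip (0.946) and S100b (0.889). The fitted fold changes were high but not extreme, ranking 81 (Trp53inp2), 93 (Bcas1), 97 (Pkp4), 245 (Trak2), 260 (Nudt3) and 281 (Map4) among the 6598 genes. In that fit 503 genes, or 7.62%, were called higher in sorted libraries and 1458, or 22.1%, lower (edgeR quasi-likelihood test, adjusted p under 0.05).

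The separation depended on how libraries were scaled. With the size factors of DESeq2, a second scaling tool, 5 of the 6 stayed separated and Nudt3 overlapped, with a gap of 0.811. Nudt3 also overlapped, with a gap of 0.892, when crude libraries were thinned to the depth of the sorted ones. With library totals and no TMM factors, the gap fell below 1 for all 6, from 0.302 for Nudt3 to 0.945 for Trak2, and 2 of 6598 genes, or 0.0303%, were separated. The TPM values that the authors deposited, which also divide each count by transcript length, likewise left none of the 6 separated, with 1 of 6598 genes, or 0.0152%, separated in all. Sorted replicate 4 was the library most often below the highest crude one. In TPM, Trp53inp2, Pkp4 and Trak2 each had 9 of 10 sorted libraries above the highest crude one, all but replicate 4. By the same measure, Bcas1 had 8, Map4 6 and Nudt3 5 of 10 sorted libraries above. The median log2 fold change over all genes tested was -0.18 with TMM factors and -1.28 with library totals. Against that shift the 6 still had fitted log2 fold changes of 1.77 (Map4) to 2.99 (Trp53inp2) with library totals.

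**Figure D2:**
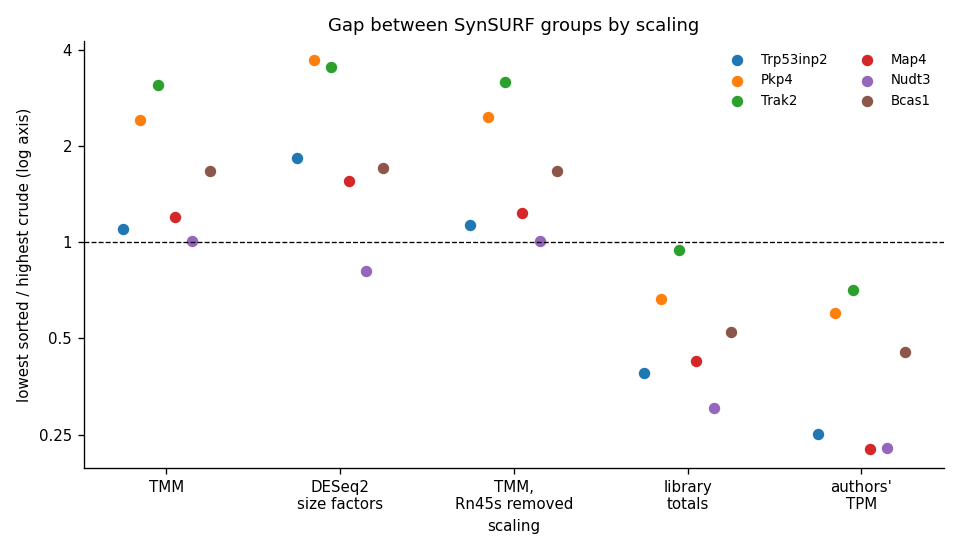
Gap between the SynSURF groups for each mRNA, the lowest sorted library divided by the highest crude library, on a log axis under 5 scalings. Points above the dashed line at 1 mark groups that do not overlap; all 6 lie above it with TMM factors, and all 6 lie below it with library totals and with TPM.

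A rank within a library needs no scaling between libraries. By TPM rank among all genes of its own library, Pkp4, Trak2 and Bcas1 stood higher in every sorted library than in any crude one. The median rank moved from 2054.5 in crude to 285.0 in sorted libraries for Pkp4, from 481.0 to 115.5 for Trak2 and from 2341.0 to 414.0 for Bcas1. Trp53inp2 moved from a median rank of 1071.5 to 137.5, with 9 of 10 sorted libraries above the best crude rank. Map4 moved from 693.5 to 308.0 with 8 of 10, and Nudt3 from 334.0 to 179.0 with 6 of 10. Such a shift in rank was common, since 516 of 6598 genes, or 7.82%, were ranked higher in every sorted library, and sorted libraries detect fewer genes.

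Per length, the order of the 6 medians also changed between groups. By median TPM, crude libraries ran Nudt3 (446), Trak2 (323), Map4 (232), Trp53inp2 (150), Pkp4 (79.1) and Bcas1 (63.3). Sorted libraries ran Trp53inp2 (1154), Trak2 (1093), Nudt3 (761), Map4 (490), Pkp4 (441) and Bcas1 (358). The ranges of neighbours in each order overlapped, so neighbouring places do not differ beyond the spread between libraries. In sorted libraries even the first and last overlapped, Trp53inp2 at 83.4 to 2845 and Bcas1 at 47.1 to 973. The changed order is therefore one of medians only.

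In the sucrose preparation none of the 6 was separated and none passed the test. Trp53inp2 was at 217, 264 and 351 CPM in the crude libraries and at 146, 352 and 303 CPM in the sorted ones. The log2 fold change was -0.05, with a 95% interval of -0.97 to 0.86 (edgeR quasi-likelihood test, adjusted p = 0.999). Sorted replicate 2 was level with the highest crude library and sorted replicate 1 was the lowest of all 6 libraries. Leaving out sorted replicate 1 turned the value to 0.24, and leaving out crude replicate 3 to 0.14.

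Pkp4 was at 204, 212 and 271 CPM in sucrose crude libraries and at 209, 247 and 170 CPM in sorted ones, a log2 fold change of -0.13 (95% interval -0.93 to 0.66). Trak2 was at 706, 1032 and 1346 CPM in crude and at 565, 858 and 918 CPM in sorted libraries, a log2 fold change of -0.40 (-1.23 to 0.43). Both sets of values overlapped between groups, although Trak2 was lower in the sorted library of all 3 same-numbered pairs (log2 fold change -0.38 with the pairs as a block, edgeR adjusted p = 0.622). Map4 was at 325, 526 and 774 CPM in crude and at 408, 550 and 547 CPM in sorted libraries, a log2 fold change of -0.11 (-0.98 to 0.76).

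Nudt3 had the widest spread in this preparation, at 57.3, 537 and 227 CPM in crude and at 159, 442 and 261 CPM in sorted libraries. Its log2 fold change was 0.07, and the interval of -1.36 to 1.49 was the broadest of the 6. With the pairs as a block the value was 0.43 (edgeR adjusted p = 0.699). Bcas1 was at 67.4, 101 and 181 CPM in crude and at 49.8, 57.6 and 76.1 CPM in sorted libraries. Its log2 fold change of -0.93 (-1.93 to 0.07) was the lowest of the 6, with an unadjusted p of 0.0665 and an adjusted p of 0.999 in edgeR's quasi-likelihood fit. It was lower in the sorted library of all 3 pairs, at -0.84 with the pairs as a block (edgeR adjusted p = 0.506). Trp53inp2 was lower in 2 of 3 pairs, and Pkp4, Map4 and Nudt3 in 1 of 3.

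Of 10589 genes tested in sucrose, 484, or 4.57%, had all 3 sorted libraries above all 3 crude ones, and none of the 6 was among them. With 3 against 3 libraries an exact permutation test cannot go below p = 0.1. No gene was called in either direction (0.0% higher, 0.0% lower; edgeR quasi-likelihood test), 324 had an unadjusted p under 0.05, and the DESeq2 Wald test called 1 gene, lower. In the authors' deposited table the fold over crude of libraries that its header names 4, a name no label uses, was 0.951 for Trp53inp2, 0.901 for Pkp4, 0.751 for Trak2, 0.917 for Map4, 1.04 for Nudt3 and 0.521 for Bcas1. The tables were scaled separately, the SynSURF fold changes are those of genes chosen for them, and the difference between preparations was not tested.

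**Figure D3:**
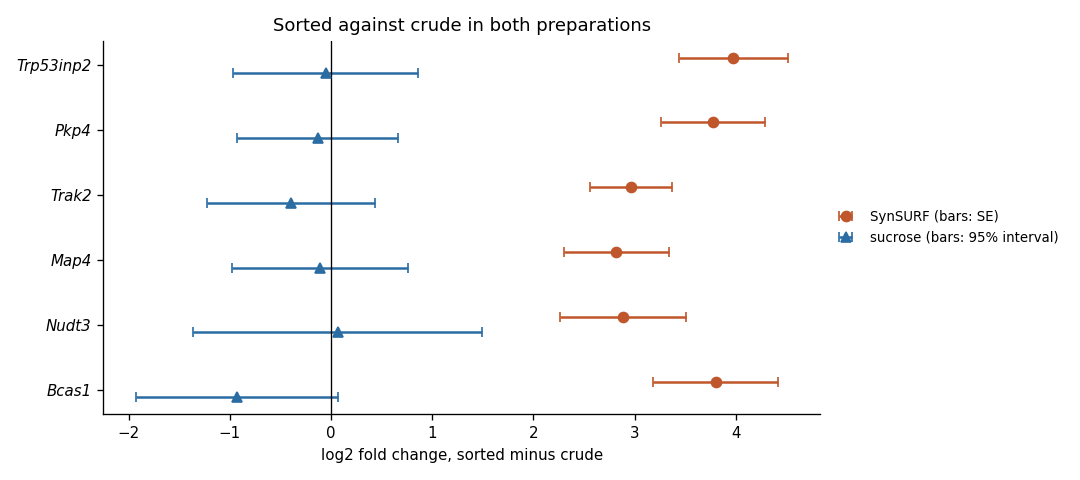
Fitted log2 fold change of sorted over crude libraries for each mRNA in both preparations. Circles are SynSURF (10 against 10 libraries, bars are SE) and triangles are sucrose (3 against 3, bars are 95% intervals). Both fits took no account of pairs. SynSURF values lie between 2.82 and 3.98, and the 6 sucrose intervals all include 0.

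The mRNAs are annotated with several transcripts, and a count divided by its TPM is proportional to the transcript length the authors used for that gene in that library. The ratio also carries a factor common to the genes of a library, so it was taken relative to the median of the measured genes in that library. It was not used in the choice of genes and was examined after the data were seen. For Map4 it was longer in SynSURF sorted libraries. Set to 100% at the crude median, it ran from 94.5% to 111% in crude libraries. In sorted libraries it ran from 102% to 131% with a median of 117%, and 8 of 10 lay above the highest crude library. The log2 difference was 0.19 ± 0.04 (SE; limma, adjusted p = 0.0072 over 165 genes with at least 20 counts in 80% of each group). The test treated the libraries as unpaired, although replicate 3 was highest in both groups (111% and 131%) and replicate 6 lowest (94.5% and 102%). The ratio was higher in every sorted library than in the crude one of the same number. Map4 was the single gene called longer, or 0.606% of those measured, and no gene was called shorter, while 52 had an unadjusted p under 0.05. GENCODE M21 lists 13 coding transcripts of Map4, from 693 to 6091 bases.

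The other 5 mRNAs did not pass this test. Their log2 differences in implied length ran from -0.06 (Bcas1) to -0.04 (Pkp4), near the median of -0.03 over all 165 genes. Sorted medians were 97.6% for Trp53inp2, 99.4% for Pkp4, 97.5% for Trak2, 98.0% for Nudt3 and 97.3% for Bcas1. In crude libraries Trp53inp2, Pkp4, Trak2 and Nudt3 were higher in each of replicates 1 to 5 than in any of replicates 6 to 10. Bcas1 was not, and what sets these replicates apart was not tested. Among sorted libraries these 5 mRNAs were low together in replicates 6 and 7, at 91.1% to 95.1%. They were lowest in sorted replicate 9, at 83.9% to 87.8%, where Map4 was at 117%. Without that library the log2 difference of Map4 was 0.188 (limma, adjusted p = 0.019). In sucrose the implied length of Map4 ran from 94.3% to 105% in crude and from 97.7% to 105% in sorted libraries, a log2 difference of 0.03 ± 0.05 (adjusted p = 0.882 in limma), and 1 of 6567 genes, or 0.0152%, was called longer. Which transcripts carried the Map4 reads cannot be read from a count per gene, and the part of depth in this difference was not tested.

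**Figure D4:**
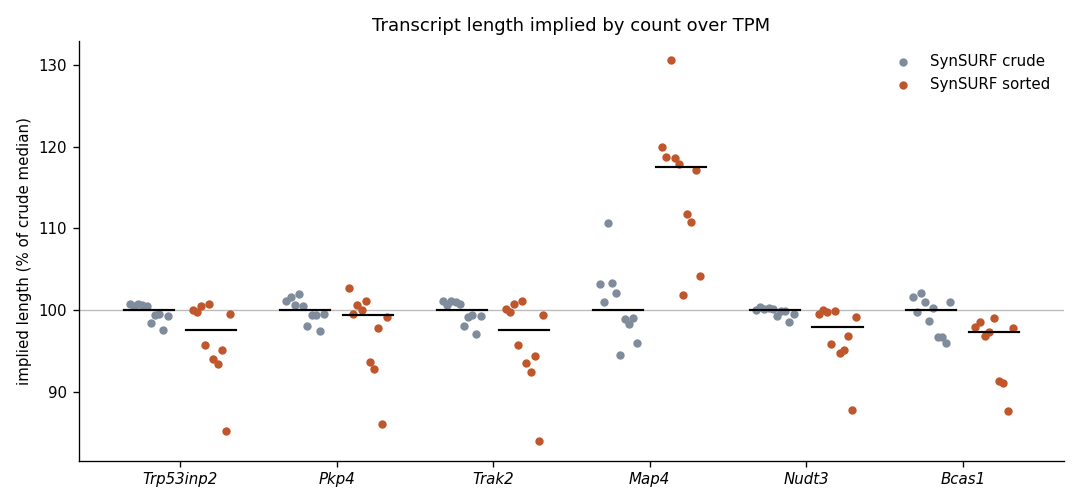
Transcript length implied by count over TPM for each mRNA in SynSURF libraries, as a percentage of the crude median. Points are libraries (up to 10 crude and 10 sorted) and bars are medians. Map4 sorted points run from 102% to 131%, and the sorted medians of the other 5 lie between 97.3% and 99.4%.

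Libraries of one group also varied, which the choice of genes did not fix. Among the 10 sorted libraries, 14 of the 15 pairs of the 6 mRNAs had a positive Pearson r of log2 CPM, with a median of 0.50. Trp53inp2 and Pkp4 were the closest pair (r = 0.815, Spearman rho = 0.842, permutation p = 0.00467 with 100000 resamples), but the adjusted p over all 30 pairs in both groups was 0.14. Without the 2 libraries farthest from the median of Trp53inp2 the r was 0.657. Among crude libraries 10 of 15 pairs were positive, with a median of 0.22, and Trak2 and Map4 were the closest (r = 0.696, rho = 0.806, permutation p = 0.0145, adjusted 0.218). None of the 30 pairs passed after adjustment. No relation of the 6 with the library total passed among sorted libraries, with r from -0.10 for Nudt3 to 0.56 for Bcas1 and permutation adjusted p of at least 0.579. With 10 libraries this cannot exclude a relation. Of the 6 r values, 5 were positive with TMM factors and 1 with library totals.

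**Figure D5:**
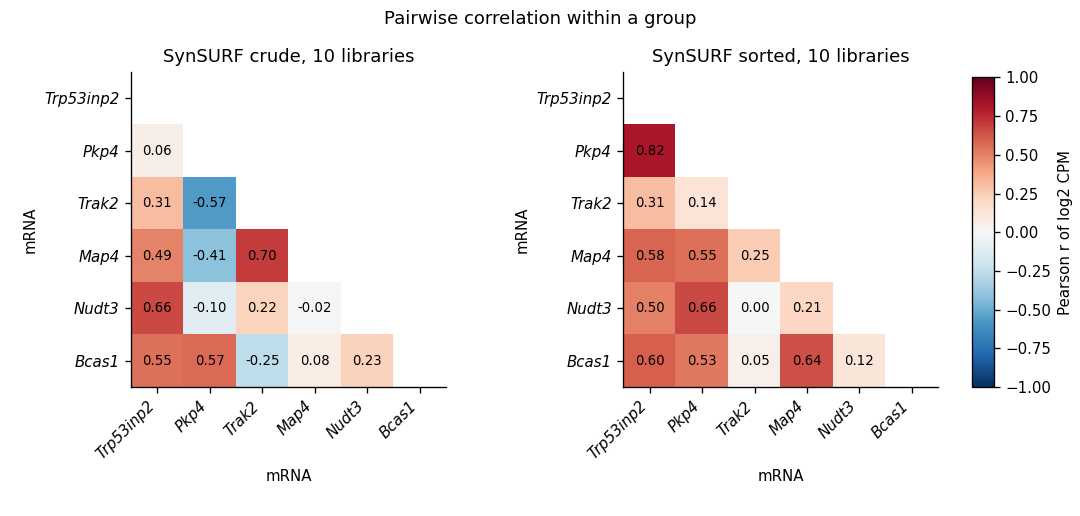
Pearson r of log2 TMM-scaled CPM for each pair of the 6 mRNAs, over the 10 SynSURF crude libraries (left) and the 10 sorted libraries (right). In sorted libraries 14 of 15 values are positive and the highest is 0.82 for Trp53inp2 and Pkp4; in crude libraries 10 of 15 are positive.

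Across all 20 SynSURF libraries the genes most like the 6 were myelin genes and one another, a description that the gap between groups dominates. Among 6475 named genes, Mobp was nearest to Pkp4 (r = 0.963) and to Trak2 (r = 0.952), and Mbp to Bcas1 (r = 0.948). Pkp4 was nearest to Trp53inp2 (r = 0.939) and Bcas1 to Map4 (r = 0.887). Nudt3 differed in being nearest to Ywhae (r = 0.843), with Trp53inp2 (r = 0.776) and Ppp1ca (r = 0.774) next. The points share libraries and depth.

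Mbp and Mobp, which encode myelin proteins and whose mRNAs travel to the myelin sheath, rose from 2602 ± 908 to 38463 ± 21478 CPM and from 679 ± 164 to 11205 ± 4678 CPM (mean ± SD, n = 10 per group). Their log2 fold changes were 3.89 ± 0.41 (adjusted p = 1.2e-06) and 4.05 ± 0.40 (adjusted p = 7.4e-07) in edgeR's quasi-likelihood fit. Both genes drew notice through the same gap between groups, so these p-values are no independent support. Mbp and Mobp also gave most of the sorted sum of 17 oligodendrocyte markers. That summed level was 3750 to 7483 CPM in crude and 19412 to 99156 CPM in sorted libraries. With library totals these ranges were 4351 to 11439 CPM and 7840 to 68409 CPM and overlapped. Of the 14 markers tested, 4 rose (Mbp, Mobp, Cnp, Fa2h) and 3 fell (Gpr37, Ugt8a, Enpp2), beside 7.62% of all genes higher and 22.1% lower, and none of the 17 was at 0 in all sorted libraries. The median over the 14 was -0.62. Fa2h had counts in 3 sorted libraries, with 53.9% of its sorted level in replicate 2. In sucrose the sum was 6446 to 11980 CPM in crude and 6834 to 7524 CPM in sorted libraries.

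Bcas1, itself an oligodendrocyte gene, followed Mbp within the sorted libraries (r = 0.869, rho = 0.855, n = 10, permutation p = 0.00118, adjusted 0.0142 over 12 relations chosen after the data were seen). Without the 2 libraries farthest from the median of Mbp the r was 0.825. The other 11 relations of the 6 mRNAs with Mbp or Mobp did not pass with TMM factors. With library totals 5 of 12 passed by Pearson r but none by Spearman rho, where the lowest adjusted p of the permutation test was 0.159. For Trak2, r was -0.02 with Mbp and 0.70 with Mobp (permutation adjusted p = 0.958 and 0.0644). The part of myelin RNA in the levels of the 6 mRNAs was not tested.

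The markers of other cells moved differently. The summed level of 12 neuronal markers was 4099 to 5708 CPM in crude and 2487 to 11600 CPM in sorted libraries, with Snap25 and Tubb3 higher and Syt1 and Gad2 lower among 11 tested (median log2 fold change 0.43). Beside 22.1% of all genes lower and 7.62% higher, of 10 astrocyte markers 5 fell and 1, S100b, rose, and of 6 microglial markers tested 4 fell, with medians of -1.78 and -2.19. Their summed ranges were 7822 to 17828 against 4018 to 15589 CPM for astrocytes and 440 to 821 against 25.3 to 656 CPM for microglia, with Cx3cr1 at 0 in all sorted libraries. Of 7 endothelial and mural markers 6 were at 0 there (summed level at most 10.5 CPM, against at most 28.8 CPM in crude libraries). The remaining sums ran from 0 to 1506 CPM for 5 oligodendrocyte precursor markers (Cspg4 and Gpr17 at 0), 0 to 366 CPM for 3 choroid plexus and ependymal markers (Folr1 at 0) and 0 to 969 CPM for 4 red blood cell markers (Hba-a2 at 0). In crude libraries those sums were 70.8 to 229, 113 to 734 and 36 to 255 CPM, and no tested gene of these 3 lists passed.

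Of 9 close relatives of the 6 mRNAs that could be tested, 1 passed, higher in sorted libraries as were 7.62% of all genes. Among partners of Trak2, its paralog Trak1 was listed with a log2 fold change of 2.64 ± 1.16 (adjusted p = 0.0858), but it had counts in only 5 of 10 sorted libraries and 87.2% of its sorted level came from replicate 10. Without that library it was -0.18. The Miro genes Rhot1 (-0.29) and Rhot2 (0.98) and the adaptor gene Hap1 (0.56) did not pass either, and Rhot2 and Hap1 turned to -0.15 and -0.20 with library totals. In sucrose Trak1 was at 0.77 ± 0.43 (adjusted p = 0.999).

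Of the microtubule relatives of Map4, Map2 was at 1181 ± 578 CPM in crude and 974 ± 1825 CPM in sorted libraries, a log2 fold change of -0.28 ± 0.74. Mapt, which encodes tau, was at 399 ± 72.4 and 915 ± 660 CPM (1.20 ± 0.48, adjusted p = 0.0591 in edgeR). Of the p120-catenin relatives of Pkp4 only Ctnnd2, the neuronal delta-catenin gene, was abundant enough to test, at -0.28 ± 0.60. Pkp1, Pkp2, Pkp3, Ctnnd1 and Arvcf had too few counts in the SynSURF libraries, as did Trp53inp1, the single paralog of Trp53inp2, with counts in 4 of 10 sorted libraries.

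Nudt4, a paralog of Nudt3, was the one relative that passed, at 422 ± 126 CPM in crude and 2193 ± 4361 CPM in sorted libraries (log2 fold change 2.38 ± 0.71, adjusted p = 0.013 in edgeR). Sorted replicate 8 held 65.9% of its sorted level, and without it the value was 0.94 with an adjusted p of 0.18. Nudt11 was at -0.25 ± 0.58 and Nudt10 was not tested. No relative passed in sucrose.

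The pathway counts below stand beside a background of 7.62% of all genes higher and 22.1% lower, and none is set apart from it by a test. Of 23 autophagy genes tested other than Trp53inp2, 1 rose (Atg14, log2 3.00) and 2 fell (Atg4b, Map1lc3a), with a median of 0.94 against -0.18 over all genes. The most abundant, Map1lc3b, Sqstm1 and Atg16l1, were at 1.16, 2.01 and 1.40 and did not pass. Sorted replicate 5 held 72.9% of the sorted level of Sqstm1, which was at 0.24 without it. Atg14 had counts in 5 sorted libraries. Atg4b had none in any.

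Of 11 genes of mitochondrial transport other than Trak2, 1 rose (Kif5a, a neuronal kinesin heavy chain, 1.41 ± 0.51, adjusted p = 0.0378) and 1 fell (the dynein chain gene Dync1i1, -3.16), with a median of -0.26. The sister kinesin genes Kif5b (1.01) and Kif5c (0.70) did not pass. Of 21 microtubule-associated genes other than Map4, 3 rose (Mapre2, Mark2 and Map6, at 2.15, 2.34 and 2.96) and 2 fell (Clip1, Dcx), with a median of 0.73. Dclk1 (0.38) and Tppp (1.08) did not pass.

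Of 11 adherens junction genes other than Pkp4, 2 fell (Nectin3, Cdh2) and none rose, with a median of -0.16, and the abundant Ctnnb1 (0.33), Erbin (0.78) and Cdh10 (-1.81) did not pass. Of 8 decapping genes other than Nudt3, 2 fell (Dcp1a, Lsm1) and none rose, with a median of -0.44. Ddx6 was at 2.40, Dcp2 at -0.53 and Edc4 at -1.43, none of which passed, but each passed in some fits that left out 1 library. Of 4 inositol pyrophosphate genes, Ip6k2 rose (3.18) and Ipmk fell (-4.41), with a median of -0.79, while Minpp1 (-0.74) and Ip6k1 (-0.84) did not pass. Ip6k2 had counts in 3 sorted libraries, with 97.1% of its summed sorted level in replicate 1, and was at -1.71 without that library. With library totals Kif5a, Mapre2, Mark2, Map6, Atg14, Ip6k2 and Snap25 no longer passed, and their values were 0.14, 0.75, 1.17, 1.87, 2.19, 1.10 and 0.25. In sucrose no gene of any of these lists passed.

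Pumilio proteins bind a short element in 3′ UTRs and act on mRNA localisation and translation. The 3′ UTRs of the 6 mRNAs were therefore searched for its letters, TGTANATA, on the transcript strand. For each gene only the coding transcript with the longest annotated 3′ UTR was searched. Matches were found in 3 of 6, against 34.7% of 6472 tested genes with an annotated 3′ UTR (median length 1610 bases), a difference that was not tested. The 3 matches are shown as the ones found. Each is given 5′ to 3′ on the transcript strand from GENCODE M21 transcripts, with the element in capitals. The Pkp4 site lies at chr2:59354909-59354932, the Trak2 site at chr1:58900904-58900927 and the Bcas1 site at chr2:170347995-170348018 (GRCm38).
Pkp4: tctgttggTGTAAATAtggaaatg
Trak2: aaatcttaTGTAAATAgccattgg
Bcas1: ccacactgTGTATATAtttttctt
Pkp4 and Trak2 hold the same 8 letters in capitals. The transcripts searched for Trp53inp2, Map4 and Nudt3, with annotated 3′ UTRs of 3058, 2986 and 1554 bases, hold no match. Those of Map4 and Nudt3 were 3446 and 1866 bases long, while annotated coding transcripts run to 6091 and 2223 bases. Other transcripts were not searched. A match is a description of the sequence and not a binding site.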

How the data were processed

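The authors deposited estimated counts and TPM per gene for both preparations, in separate tables, and for sucrose their own fold (a ratio) and a value headed PPEE, per the file headers. Of tools and builds, fastp, HISAT2, GRCm38 and GRCm39 appear in the submitters' processing notes; no source used here names the counting tool, strand setting or the build of each table. Estimated counts were rounded (7278 SynSURF and 4660 sucrose values were not whole). Not used were 18 other columns of per-sample values.

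Groups came from sample titles. Sorted and crude libraries were compared within each table by edgeR 4.0.16 in R 4.3.3 (quasi-likelihood test, TMM factors, filterByExpr, Benjamini-Hochberg over all genes tested, threshold 0.05). Implied lengths used limma 3.58.1. Permutation tests of correlations were 2-sided with 100000 resamples (smallest possible p 1e-05). Tested on simulated data, the edgeR fit recovered 55.8% of genes changed by log2 3 in SynSURF (6268 genes) and 82.8% in sucrose (10286 genes). These shares cover the 163 and 186 changed genes that passed the filter. The simulation held no difference in composition between groups, unlike the real SynSURF libraries, so it does not give the power of that comparison. Alternatives were DESeq2 1.42.0 size factors and Wald test, library totals, other filters, a replicate block, thinned crude libraries, Rn45s removed and each library left out. The TPM, rank and implied length comparisons, the relations with myelin genes and the left-out libraries for separation were chosen after seeing the data.

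The 6 mRNAs and the gene lists were chosen with earlier results of these data known. Genes named are the 6, their relatives, the 3 most abundant tested genes of each pathway list, the 3 genes most like each of the 6 and the 3 on either side of complete separation. Called list genes outside that rule were named after their values were seen. In sucrose, crude and sorted libraries of the same number deviated together (correlation of deviations from the group means 0.323 to 0.473 in 3 of 3 pairs, others at most 0.0177), so the numbers, taken from the titles, pair the libraries.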

Additional observations from a re-analysis of the deposited data

Results flagged for a closer look

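In 4 of 12 groups of 10 SynSURF libraries, 1 per mRNA and group, a library stood apart by Dixon's test on unlogged CPM. The rate of about 1 in 20 by chance holds for normal values in independent groups. These groups share libraries and sorted CPM are skewed, so the flags are a description only. Map4 in crude replicate 1 was at 482 CPM, with the next at 357 CPM. Nudt3 in crude replicate 2 was at 100.1 CPM, below the next at 277 CPM. Nudt3 in sorted replicate 10 was at 10491 CPM, with the next at 4994 CPM. Bcas1 in sorted replicate 1 was at 3619 CPM, with the next at 1531 CPM; that library was the deepest sorted one and held 37.9% of its counts on Rn45s. The part of library composition in these values was not tested.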

How the results depend on the processing

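The 6 mRNAs kept a higher fitted level in SynSURF sorted libraries under every scaling, filter, block and left-out library run. Only Pkp4 (2.81) and Trak2 (1.96) moved by more than 1 SD of the sorted libraries, both with library totals. The SD is larger for mRNAs that vary more between libraries, so this rule does not rank the moves by size. In log2 units library totals lowered all 6, Bcas1 the most and Map4 next, ahead of Pkp4 and Trak2. Complete separation held for 0 of 6 with library totals, 0 with TPM, 3 by rank within a library and 5 to 6 without each library in turn. The mRNA lost was Nudt3, without crude replicate 2 or 7 or any 1 of sorted replicates 2 to 10. Its lowest such gap was 0.899, without sorted replicate 2. The cause of the moves was not tested. Genes higher in SynSURF sorted libraries numbered 100 with library totals, 816 with no filter, 37 with the replicate block, 218 with thinned crude libraries and 307 to 621 without each library. Genes lower numbered 2592 with library totals, 2587 by the DESeq2 Wald test, 3601 with no filter, 2640 with the block, 2346 without sorted replicates 1 and 4, 205 with thinned crude libraries and 1247 to 2039 without each library. In SynSURF, same-numbered libraries deviated together weakly (correlations 0.0558 to 0.186, 2 of 10 over 0.1, against -0.109 to 0.123 for other numbers). Still, 8 of 10 crude libraries were closest to their own number, so the numbers may pair these libraries too. The main SynSURF fit and the implied length test took no account of such pairs. With the replicate block the 6 mRNAs were at log2 fold changes of 2.06 (Nudt3) to 3.75 (Trp53inp2).

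In sucrose, 1 gene was lower by the DESeq2 Wald test, with no filter and with the replicate block, and 0 to 1 without each library. The replicate block gave -0.12, -0.14, -0.38, -0.04, 0.43 and -0.84 for Trp53inp2, Pkp4, Trak2, Map4, Nudt3 and Bcas1 and changed no other call. Without each sucrose library the log2 fold change ran from -0.31 to 0.24 for Trp53inp2, -0.27 to 0.018 for Pkp4, -0.60 to -0.16 for Trak2, -0.37 to 0.23 for Map4, -0.41 to 1.02 for Nudt3 and -1.20 to -0.47 for Bcas1.

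The implied length of Map4 kept its direction and call in SynSURF (0.171 to 0.211 without each library, and 0.196 to 0.256 where the measured genes, 110 to 165, were also chosen again) and ran from -0.0074 to 0.0721 in sucrose. Relations with myelin genes that passed numbered 5 with library totals by Pearson r, and none passed there by Spearman rho. Named relatives and list genes that changed sign were Trak1 (-0.24 by the Wald test, -2.07 with the block), Rhot2 (-0.15 with library totals), Hap1 (-0.20 with library totals, -0.56 with the block), Map1lc3b (-0.32 with library totals, -1.12 with the block), Atg16l1 (-0.41 by the Wald test, -0.90 with the block), Atg14 (-1.26 with the block), Kif5c (-0.12 with library totals, -0.63 with the block), Dclk1 (-0.57 with library totals, -0.36 with the block), Ddx6 (-0.59 with the block, -0.53 without sorted replicates 1 and 4), Ctnnb1 (-0.77 with library totals, -0.057 with no filter), Erbin (-0.048 with library totals, -0.52 by the Wald test, -0.84 with the block) and Ip6k2 (-1.42 by the Wald test, -1.88 with the block, -1.56 without sorted replicates 1 and 4). Without each SynSURF library in turn these ran from -0.18 to 2.79 for Trak1, -0.42 to 0.76 for Hap1, -0.16 to 1.502 for Atg16l1, -0.27 to 0.88 for Kif5c, -0.19 to 0.54 for Dclk1, -0.0019 to 0.41 for Ctnnb1, -0.55 to 0.89 for Erbin and -1.71 to 3.39 for Ip6k2. Kif5a lost its call without 11 of 20 libraries, Mapre2 11, Ip6k2 10, Atg14 12, Map1lc3a 3, and Nudt4 and Map6 1 each. Ddx6 gained a call without 5 libraries, Sqstm1 and Edc4 3, Mapt 2, and Nudt11, Kif5b, Dcp2, Cdh10 and Minpp1 1 each. Without single libraries Sqstm1 ran from 0.24 to 2.16, Map1lc3b from 0.041 to 1.28, Ddx6 from 1.42 to 2.52, Dcp2 from -2.36 to -0.41, Nudt11 from -1.54 to -0.096, Cdh10 from -4.64 to -1.65 and Minpp1 from -2.73 to -0.51. Depth limits the sorted libraries most, where Bcas1 had as few as 11 counts.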
